A study of Drosophila melanogaster with 4 samples.

Results

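The fibroblast growth factor (FGF) genes of Drosophila melanogaster described here are 6 of the 17518 genes in the deposited gene table, taken by their symbols: the 2 receptors heartless (htl) and breathless (btl), the adaptor stumps, and the 3 ligands thisbe (ths), pyramus (pyr) and branchless (bnl). All 6 passed the filter on low counts. The samples are polyA RNA of cells that were sorted by their GFP out of stage 11 embryos and labelled as embryonic myoblasts. The lines were WT and salm[340], a mutant allele of the zinc finger gene spalt major (salm), with 2 libraries each. In both, egg laying took 3 h at 25 C and aging 7 h, homozygous embryos were chosen by hand from their GFP, and the cells were freed with elastase. The labels name no transgene behind the GFP. The replicates are technical by the submitters' own description, so each n of 2 counts libraries, and a p-value speaks only of the spread among these 4 libraries.

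FGF receptors are receptor tyrosine kinases that bind their ligands together with heparan sulfate on the cell surface. In the fly embryo Ths and Pyr, made largely by the ectoderm, act on Htl in the mesoderm, where the pathway drives mesoderm spreading and later helps specify heart and dorsal muscle progenitors. Bnl acts on Btl in the tracheal cells and guides their branching. Stumps is a cytoplasmic adaptor that both receptors need to pass the signal to Ras and MAP kinase.

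The libraries of the lines differed in depth and composition. Counts in listed genes were 20530119 to 21857295 in WT and 15170218 to 15668621 in salm[340], and mitochondrial genes took 24.8% to 29.3% of them in WT and 60.9% to 63.2% in salm[340]. Counts in nuclear genes were thus 14519441 to 16444569 against 5772320 to 5931283, so raw counts are compared between the lines only after scaling. The RNA of salm was higher in the libraries labelled salm[340], at 93.3 and 97.8 CPM (scaled counts per 1000000) against 25.7 and 24.8 in WT. What the allele changes is not in the labels, and this level therefore checks nothing. CPM values are scaled by TMM, which sets the bulk of genes equal between libraries, so every difference is relative to other genes. Among the mesoderm markers, the general muscle factor gene Mef2 had 254 and 262 CPM in WT and 262 and 290 CPM in salm[340], so RNA of the labelled cell type was present in all 4 libraries. Markers of other cell types were present too. The summed level of 6 ectoderm markers was 512.3 to 519.3 CPM in WT and that of 8 tracheal markers 419.8 to 439.6 CPM. Such sums are led by their most abundant genes and do not measure the share of a tissue.

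Of the 6 genes, stumps rose in salm[340] and the other 5 did not pass the test. Among all 10738 genes tested, 17.2% were called by edgeR's quasi-likelihood test at a Benjamini-Hochberg adjusted p under 0.05, 10.0% as higher and 7.16% as lower. A count of 1 in 6 is therefore close to that background. The median log2 fold change of the 6 was 0.06, beside -0.01 over all genes tested. The libraries of the lines did not overlap in CPM for 3 members, stumps and ths higher and htl lower in salm[340], while 59.1% of all tested genes showed such a separation. Fewer cells of a type and less RNA per cell cannot be told apart in these bulk samples.

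**Figure D1:**
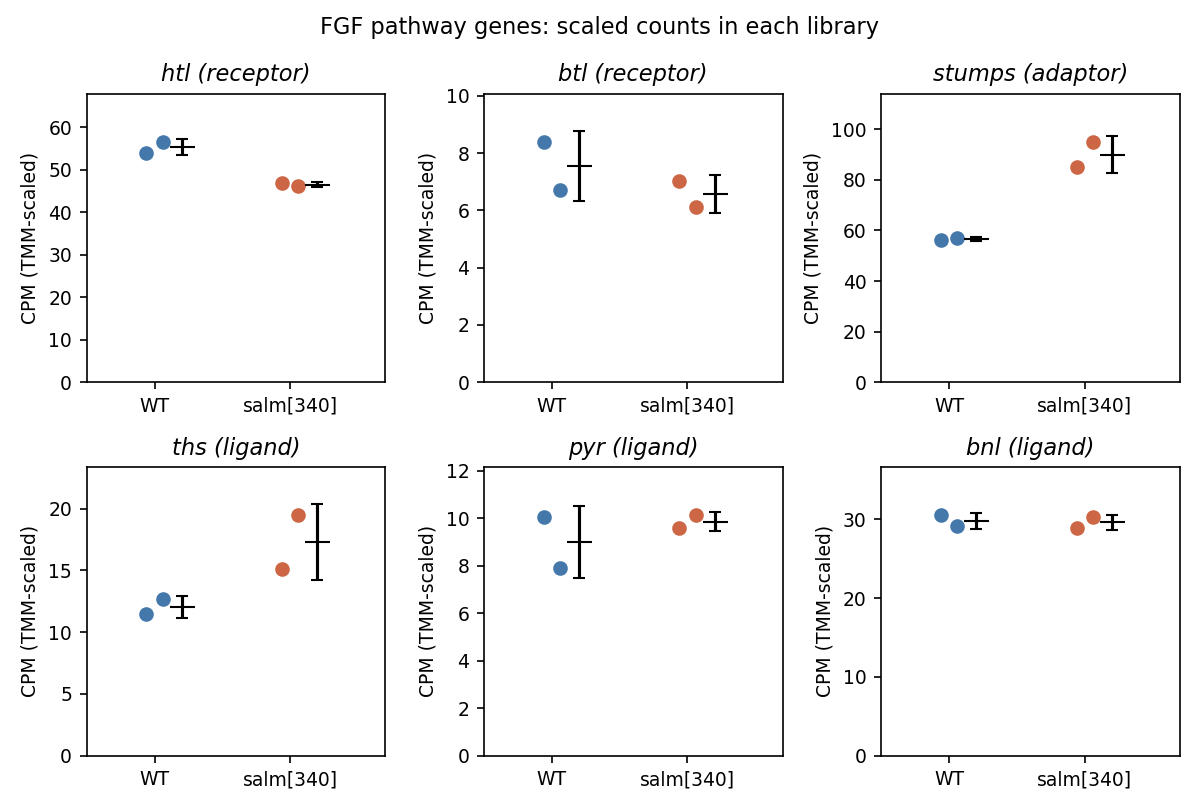
TMM-scaled CPM (y axis, from 0) of each FGF pathway gene in the 2 WT and 2 salm[340] libraries. Points are libraries and the black mark beside them is the mean ± SD of a line. The salm[340] points of stumps lie above its WT points by far more than either pair spreads, those of htl lie slightly below, and the points of btl, pyr and bnl overlap.

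The receptor gene htl (FBgn0010389, 3R, 18045216 to 18052984, minus strand, BDGP6) codes for the FGF receptor of the mesoderm. It has 4094 counted bases in 3 exon blocks, and its longest annotated protein has 729 residues. The WT libraries held 1832 and 1708 counts and the salm[340] libraries 480 and 468. Scaled, these were 54.0 and 56.6 CPM in WT and 46.9 and 46.1 CPM in salm[340], so both mutant libraries lay below both WT libraries. The means were 55.3 ± 1.84 and 46.5 ± 0.618 CPM (SD, n = 2 each). The log2 fold change was -0.25 (SE 0.0941), or 0.841 times the WT level with a 95% interval of 0.727 to 0.973. Its unadjusted p in edgeR was 0.0245, and it did not pass after adjustment over all genes (adjusted p = 0.101). Without salm340 replicate 1 or replicate 2 it passed as lower, at -0.27 and -0.25 (edgeR adjusted p = 0.0183 and 0.0338), in fits that called 3803 and 3602 genes in all.

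The second receptor gene btl (FBgn0285896, 3L, 14075772 to 14083229, plus strand) acts in the trachea and was measured at a low level. It has 3968 counted bases in 5 exon blocks, and its longest annotated protein has 1052 residues. The 285 and 202 counts of WT and the 72 and 62 counts of salm[340] gave 8.40 and 6.70 CPM against 7.04 and 6.10 CPM. The lines overlapped. The log2 fold change was -0.20 (SE 0.245, edgeR adjusted p = 0.629), and its interval, from 0.595 to 1.27 times the WT level, is too wide to show a change of the size seen in htl. Counting error alone is large here, since 62 counts have an exact 95% Poisson interval of 47.5 to 79.5.

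The 8 tracheal markers were chosen for the tissue that btl is known for, but their sum does not measure its amount. In WT the largest parts of the sum were verm (164 and 170 CPM) and rib (112 and 120 CPM). The summed CPM of the 8 was 419.8 and 439.6 in WT and 383.2 and 389.4 in salm[340], and no marker was at 0 in all libraries. Without the most abundant marker, verm, the lines overlapped, with 255.8 and 269.3 CPM in WT and 256.0 and 246.4 CPM in salm[340]. The tracheal master regulator gene trachealess (trh) had 9.20 and 9.41 CPM in WT and 12.4 and 6.40 CPM in salm[340], so its mutant libraries spanned the WT values. Of the 8 markers 0 were higher and 1 was lower in edgeR, the chitin deacetylase gene vermiform (verm, log2 fold change -0.31, SE 0.0836, adjusted p = 0.0324). Their median log2 fold change was -0.20, with single markers from -0.63 to 0.22. The part of tracheal cells in the btl value was not tested. Midline cells also use btl, and of 3 midline markers 0 passed in edgeR or DESeq2 and 0 had an unadjusted p under 0.05 in edgeR, with sim, their master regulator, at 3.65 and 3.51 CPM in WT and 3.03 and 3.44 CPM in salm[340].

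The adaptor gene stumps (FBgn0020299, 3R, 14577217 to 14608079, plus strand) was the only member called in the main fit. It has 5599 counted bases in 11 exon blocks, and its longest annotated protein has 1220 residues. The WT libraries held 1906 and 1726 counts of it, and the salm[340] libraries 869 and 967. Scaled, it had 56.2 and 57.2 CPM in WT and 84.95 and 95.2 CPM in salm[340]. The lowest mutant library was thus well above the highest WT library. The means were 56.7 ± 0.722 and 90.1 ± 7.21 CPM (SD, n = 2 each). The log2 fold change was 0.67 (SE 0.0915) with an edgeR adjusted p of 0.00101, or 1.59 times the WT level with a 95% interval of 1.38 to 1.83. This log2 fold change was above that of 87.2% of tested genes.

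With 1 library left out, the stumps difference stayed between 0.57 and 0.74 on the log2 scale, and its call was lost in 2 of the 4 fits. Without WT replicate 1 or WT replicate 2 the log2 fold change was 0.65 and 0.67, and it no longer passed (edgeR adjusted p = 0.319 and 0.277), in fits that called 14 genes each among all tested. With library size alone in place of TMM the median gene moved by -1.20 and stumps was at -0.53. Relative to that median stumps was 0.68 higher, the same as with TMM. A change of scaling moves all genes by nearly the same amount, so this agreement was fixed in advance and is no support. Of the 18 genes called higher among the members and all lists below, 17 (all but PPO2) had a log2 fold change under 0 with library size alone, so rises named here are rises relative to the median gene. Of the 13 called lower, 0 were above 0 in that setting. Mitochondrial shares were higher in the same mutant libraries, and what goes with them cannot be told apart from the line. With mitochondrial genes and rRNA features left out before scaling, stumps was at 0.67 (edgeR adjusted p = 0.000793). That setting hardly changes the scaling of the other genes, so the part of the mitochondrial shares in the stumps value was not tested.

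**Figure D2:**
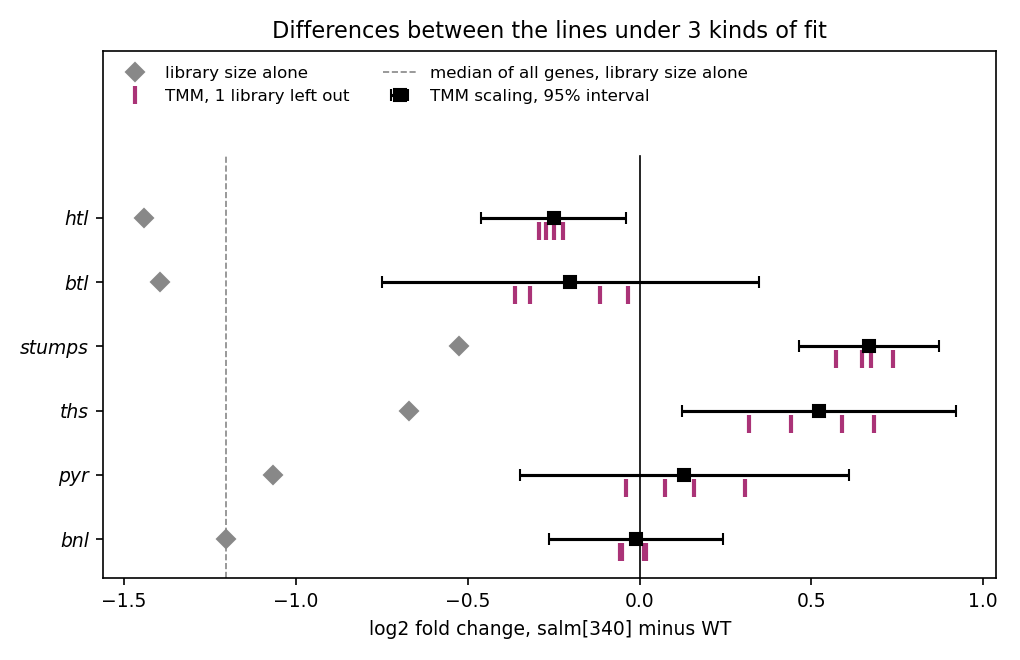
Log2 fold change, salm[340] minus WT (x axis), of each member. Squares with bars are TMM fits with their 95% interval, ticks below are the 4 fits with 1 library left out, diamonds are fits with library size alone and the dashed line is the median gene in that setting (-1.20). The stumps ticks stay between 0.57 and 0.74, and its diamond lies to the right of the dashed line.

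The ligand genes ths and pyr code for the FGF8-like ligands of Htl and lie next to each other on 2R (BDGP6). The gene pyr (FBgn0033649, 11712263 to 11726345) ends 30471 bases before ths (FBgn0033652, 11756817 to 11814424) begins, both are on the plus strand, and 0 listed genes lie between them. For ths, WT counts of 388 and 383 and salm[340] counts of 155 and 198 gave 11.4 and 12.7 CPM against 15.2 and 19.5 CPM. Both mutant libraries were above both WT libraries, but the gap between the mutant libraries was wider than the gap between the lines. The log2 fold change was 0.52 (SE 0.178), or 1.44 times the WT level with a 95% interval of 1.09 to 1.89, and it did not pass (edgeR adjusted p = 0.0740, unadjusted p = 0.0153). It passed without salm340 replicate 1 (0.68, edgeR adjusted p = 0.000282) and was at 0.32 without salm340 replicate 2 (adjusted p = 0.163).

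For pyr, WT held 342 and 239 counts and salm[340] held 98 and 103. These were 10.1 and 7.92 CPM against 9.58 and 10.1 CPM, and both mutant values lay near the upper WT value. The log2 fold change was 0.13 (SE 0.214, edgeR adjusted p = 0.727), with an interval of 0.785 to 1.52 times the WT level. The interval of pyr includes the value of ths, but this does not test the neighbours against each other. Their ratio, given below, overlapped between the lines.

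The ligand gene bnl (FBgn0014135, 3R, 19794073 to 19836817, minus strand), which codes for the ligand of Btl, was the member with the most equal levels. Its WT libraries held 1036 and 878 counts and its salm[340] libraries 296 and 308. Scaled, these were 30.5 and 29.1 CPM against 28.9 and 30.3 CPM, with means of 29.8 ± 1.02 and 29.6 ± 0.969 CPM (SD, n = 2 each). The log2 fold change was -0.01 (SE 0.113, edgeR adjusted p = 0.966), and its 95% interval of 0.834 to 1.18 times the WT level leaves out a rise of the size of stumps.

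The ligand genes are known from the ectoderm, whose markers moved in both directions. Of 6 ectoderm markers 2 were higher and 2 lower in edgeR, and their median log2 fold change was 0.002. The septate junction gene coracle (cora, log2 fold change 0.87, SE 0.0713, adjusted p = 4.223e-05) and the transcription factor gene SoxN (0.60, SE 0.162, adjusted p = 0.0315) rose, and the septate junction gene Nrx-IV (-0.48, SE 0.0923, adjusted p = 0.00640) and the polarity gene crumbs (crb, -0.35, SE 0.0911, adjusted p = 0.0273) fell. Their summed level was 512.3 and 519.3 CPM in WT and 629.4 and 664.7 CPM in salm[340], with no marker at 0 in all libraries. The most abundant marker, cora, set that direction: the other 5 summed to 301.4 and 308.2 CPM in WT and 252.0 and 273.0 CPM in salm[340]. The part of ectoderm cells in the ligand values was not tested.

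Per kb of counted length, the scale on which genes can be compared, the members differed widely. In WT htl had the highest level, 13.5 ± 0.450 CPM per kb, above 77.8% of all tested genes. It was followed by stumps (10.1 ± 0.129 CPM per kb, above 70.8%), bnl (6.54 ± 0.223, above 58.8%), pyr (2.80 ± 0.476, above 36.1%), btl (1.90 ± 0.304, above 28.5%) and ths (1.50 ± 0.110, above 24.1%; SD, n = 2 each). Libraries of neighbours in this order did not overlap. The closest were btl, with 2.12 and 1.69 CPM per kb, and ths, with 1.42 and 1.57 CPM per kb.

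In salm[340] 2 pairs of neighbours changed places by their means. The adaptor gene stumps stood first at 16.1 ± 1.29 CPM per kb, above 81.2% of tested genes, and htl second at 11.4 ± 0.151 CPM per kb, above 73.5%. Then came bnl (6.50 ± 0.213 CPM per kb) and pyr (3.07 ± 0.122), and ths (2.15 ± 0.380) stood above btl (1.66 ± 0.167; SD, n = 2 each). Neighbours again did not overlap, with ths at 1.88 and 2.42 CPM per kb and btl at 1.77 and 1.54. Per length, the ligand gene for the tracheal receptor was above its receptor in both lines, and the ligand genes for Htl were below theirs in both.

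**Figure D3:**
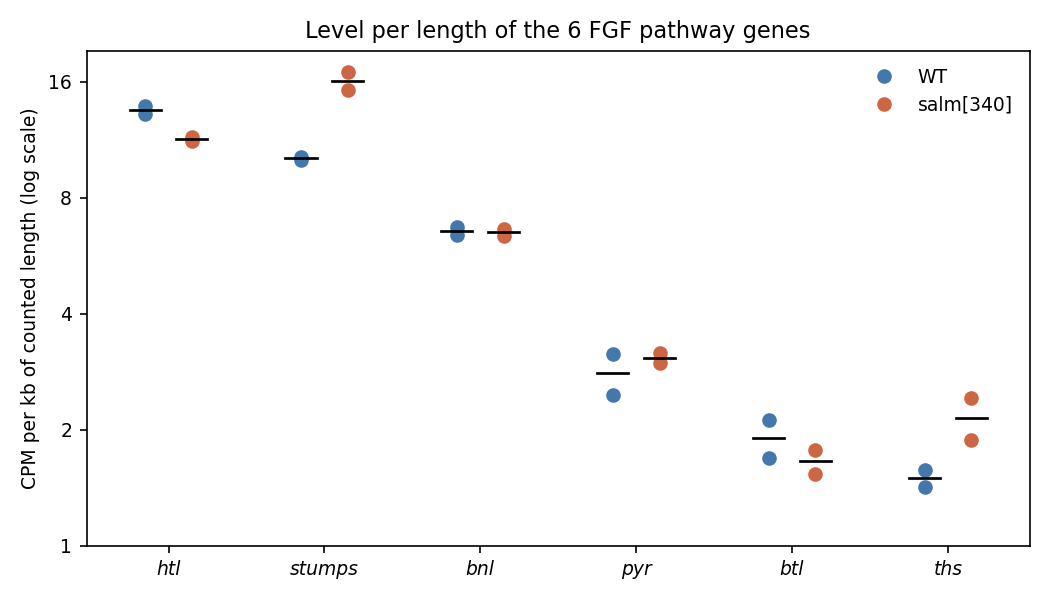
CPM per kb of counted length (log axis) of the members, ordered by their WT level. Points are libraries and short lines are means. In WT htl is above stumps, in salm[340] stumps is above htl, and bnl is at about 6.5 in both lines.

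Ratios of counts within a library do not depend on how libraries are scaled, and 6 were computed with 0.5 added to each count. The ratio of stumps to htl was 1.04 and 1.01 in WT and 1.81 and 2.065 in the mutant, so adaptor and receptor gene had nearly equal counts in WT and the adaptor gene had more in the mutant. On the log2 scale the difference between the lines was 0.91, against SDs of 0.0297 in WT and 0.135 in salm[340] (n = 2 each). Its 95% interval from counting error alone was 0.78 to 1.05, and it ranged from 0.82 to 1.01 with any 1 library left out. With 2 libraries against 2, the exact two-sided permutation test cannot give a p under 0.333, which is the value found here (0.667 after Benjamini-Hochberg adjustment over the 6 ratios).

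The summed counts of the ligand genes for Htl were higher relative to their receptor gene in both mutant libraries. The ratio of ths and pyr to htl was 0.399 and 0.364 in WT and 0.528 and 0.644 in the mutant, a log2 difference of 0.61 (counting interval 0.44 to 0.79, exact permutation p = 0.333, adjusted p = 0.667). The lines did not overlap. The ratio of all 3 ligands to both receptors went the same way, from 0.834 and 0.785 to 0.995 and 1.15, a log2 difference of 0.40 (counting interval 0.26 to 0.54, with the same exact p values). These ratios share htl with the first one and are not independent of it.

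The other 3 ratios overlapped between the lines. The ratio of ths to pyr was 1.13 and 1.60 in WT and 1.58 and 1.92 in salm[340]. That of bnl to btl was 3.63 and 4.34 in WT and 4.09 and 4.94 in salm[340]. The ratio of btl to htl, the receptors of trachea and mesoderm, was 0.156 and 0.119 in WT and 0.151 and 0.133 in the mutant, a log2 difference of 0.06 (counting interval -0.23 to 0.36, exact permutation p = 1). The interval allows a shift of either sign.

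**Figure D4:**
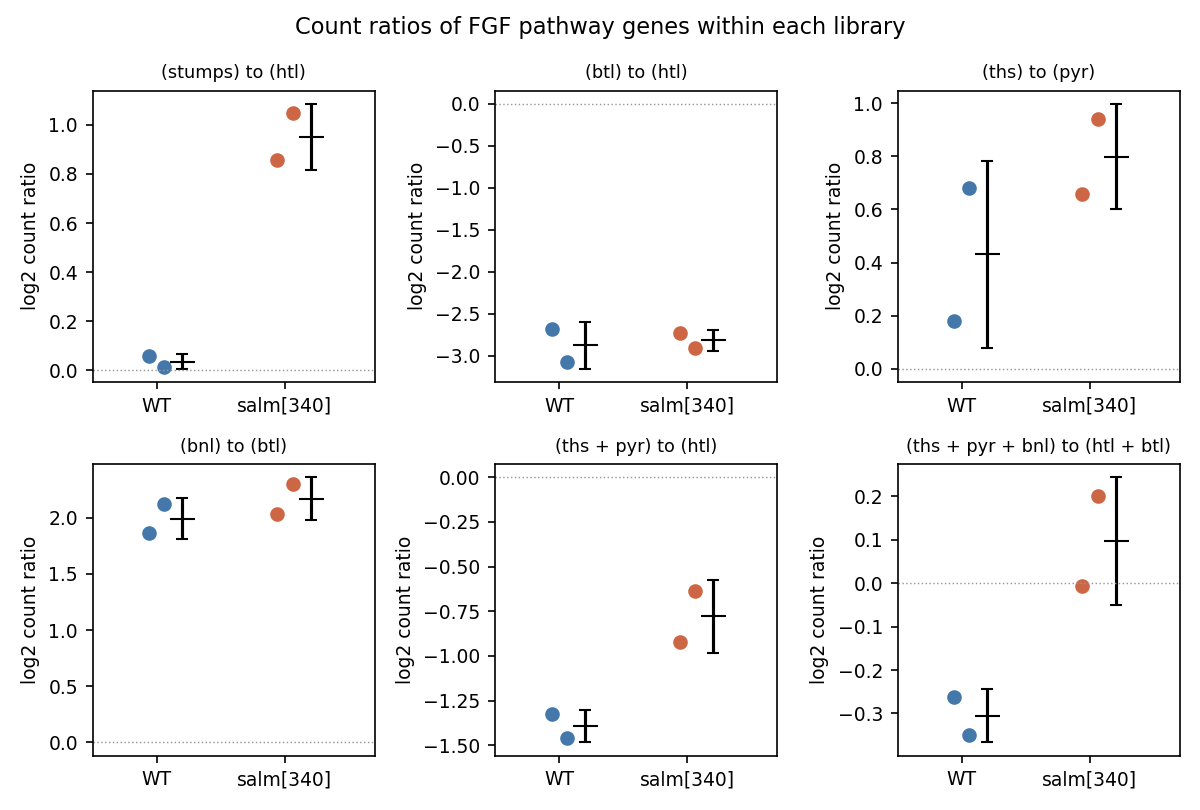
Log2 ratio of counts (y axis) between FGF pathway genes within each library, with points for libraries and the mean ± SD of each line beside them. The lines separate in the ratios of stumps to htl, of ths and pyr to htl, and of all ligands to both receptors. They overlap in the other 3.

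The genes whose 4 libraries varied most like those of a member were found by the distance between log2 CPM values centred on each gene's mean, among genes within 2-fold of its CPM. For stumps, compared with 1617 genes, they were CG2747 (distance 0.0171, log2 fold change 0.68), the farnesyl diphosphate synthase gene Fpps (0.0423, 0.66) and the glycogen phosphorylase gene GlyP (0.0435, 0.67), where the median gene was at a distance of 0.683. For htl, compared with 2229 genes, they were Iml1 (0.0205, log2 fold change -0.24), TM9SF4 (0.0218, -0.25) and uif (0.0221, -0.24), against a median of 0.366. With 4 libraries many genes share such a pattern.

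Downstream of the receptors lies the Ras and MAP kinase cascade. Over all tested genes edgeR called 17.2%, the share beside which the count of every list here is read. Of the 13 cascade genes DESeq2 called 2. In edgeR 3 were higher and 0 lower, and the median log2 fold change was 0.03. Those that rose were the Src family kinase genes Src42A (77.7 and 82.4 CPM in WT, 106 and 116 CPM in salm[340], log2 fold change 0.47, SE 0.0878) and Src64B (0.34, SE 0.0831), and corkscrew (csw, 0.55, SE 0.141), the SHP-2 type phosphatase known to bind Stumps (edgeR adjusted p = 0.00537, 0.0214 and 0.0262). For csw the values were 16.3 and 16.8 CPM in WT and 26.1 and 22.2 CPM in salm[340]. The other 10 did not pass. Among them, the adaptor gene drk was at -0.26, Shc at -0.055, dos at -0.0071 and the exchange factor gene Sos at 0.15. Ras85D was at -0.07, Raf at -0.09, the MEK gene Dsor1 at -0.48 (SE 0.234) and the MAP kinase gene rolled (rl) at 0.21.

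Among 8 feedback and nuclear effector genes, 2 were higher and 0 lower, with a median of 0.17. Sprouty (sty), a feedback inhibitor first known from Btl signalling, rose from 36.3 and 41.2 CPM to 48.5 and 53.9 CPM (log2 fold change 0.40, SE 0.110, edgeR adjusted p = 0.0326). Mkp3, a phosphatase that turns MAP kinase off, rose from 18.2 and 19.4 CPM to 23.4 and 33.9 CPM (0.60, SE 0.171, adjusted p = 0.0378). The nuclear effector gene pointed (pnt, -0.14) and its opponent aop (0.10) did not pass. DESeq2 called 0 of the 8.

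Of 13 genes for heparan sulfate and its core proteins, DESeq2 called 2. In edgeR 2 were higher and 0 lower, and the median was -0.13. The glypican gene dally-like (dlp, 36.8 and 37.3 CPM in WT, 47.1 and 56.7 CPM in salm[340], log2 fold change 0.49, SE 0.112, edgeR adjusted p = 0.0156) and the perlecan gene trol (0.53, SE 0.0959, adjusted p = 0.00462) code for core proteins, and both rose. The core protein genes dally (0.33, SE 0.149, adjusted p = 0.165) and Sdc (-0.18, SE 0.0863, adjusted p = 0.202) did not pass. The enzyme genes sugarless (sgl, -0.13) and sulfateless (sfl, -0.16), known to be needed for FGF signalling in the fly, did not pass either.

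The FGF receptors stand among other receptor tyrosine kinases. Of 15 such genes tested, 5 were higher and 3 lower in edgeR, with a median of 0.23, where 17.2% of all tested genes were called. DESeq2 called 4 genes of this list. The Derailed gene drl (log2 fold change 0.58, SE 0.111) and the EGF receptor gene Egfr (0.58, SE 0.128) were higher, while the PDGF and VEGF receptor gene Pvr (-0.596, SE 0.101) and Nrk (-0.67, SE 0.133) were lower (edgeR adjusted p between 0.00323 and 0.0123). Pvr is known from hemocytes. Of 8 tested hemocyte markers 1 was higher (PPO2), 3 were lower (Ppn, Pxn and Col4a1) and 4 did not pass. The summed level of the 10 listed was 228.9 and 236.3 CPM in WT and 168.6 and 202.0 CPM in salm[340]. Without Ppn, the most abundant, the other 9 had 150.1 and 158.8 CPM in WT and 121.6 and 145.8 CPM in salm[340]. The part of hemocytes in the Pvr value was not tested. Per kb, htl in WT (13.5 CPM per kb) stood beside drl (14.6) and otk (13.0) and above Pvr (8.80) and Egfr (4.65).

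**Figure D5:**
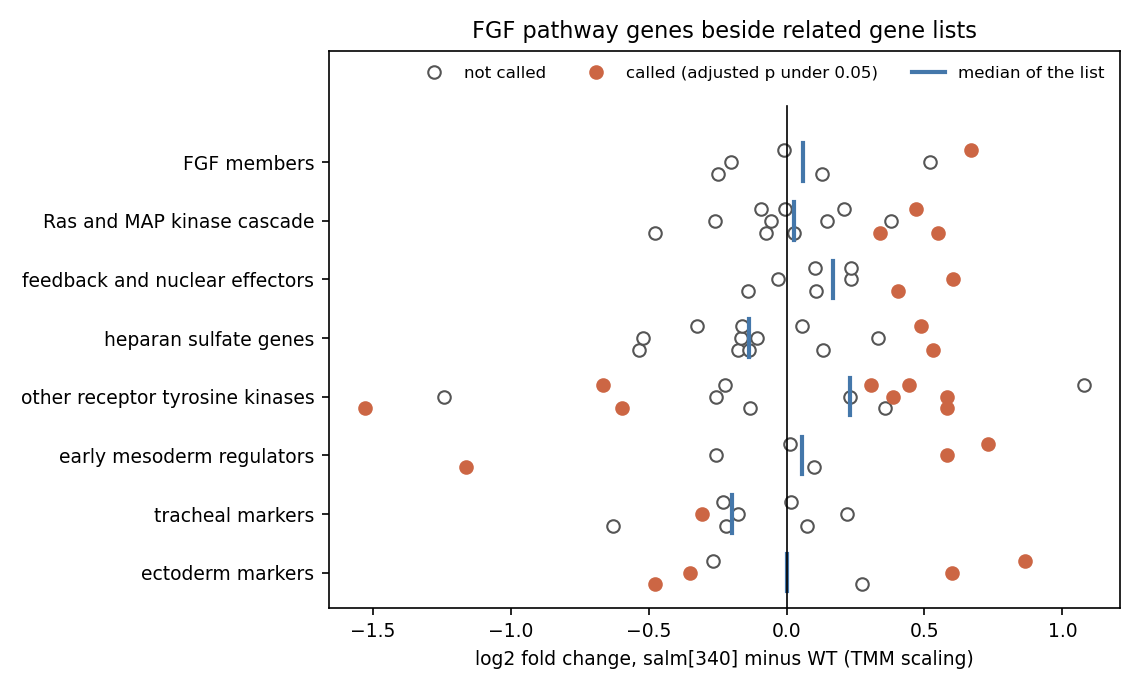
Log2 fold change, salm[340] minus WT (x axis), of the tested genes of 8 lists, with filled points for genes called by edgeR, open points for the rest and a bar for the median. FGF members spread from -0.25 to 0.67 around a median of 0.06, close to the cascade genes (0.03).

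Genes that act before and after Htl in the mesoderm were mixed. Of 6 early mesoderm regulators 2 were higher and 1 lower, with a median of 0.06. Twist (twi), which activates the early mesoderm genes, had 21.7 and 18.9 CPM in WT and 14.7 and 19.4 CPM in salm[340] and did not pass (-0.25, SE 0.168, edgeR adjusted p = 0.345). Snail (sna), a repressor of ectoderm genes in the early mesoderm, fell by 1.16 (SE 0.138). Him (0.73, SE 0.0832), an inhibitor of Mef2 activity, and the zinc finger gene zfh1 (0.58, SE 0.0852) rose (edgeR adjusted p of sna, Him and zfh1 between 0.000325 and 0.00146). Of 8 neural markers 2 also fell, wor and nerfin-1, and 6 did not pass. The cell type behind the sna value was not tested. Of 10 tested genes of the dorsal mesoderm, where Htl is active, 0 passed in edgeR or DESeq2 and 1 had an unadjusted p under 0.05 in edgeR, the heart and dorsal muscle gene tinman (tin), with 2.36 and 2.52 CPM in WT and 2.64 and 7.67 CPM in salm[340]. Its mutant libraries disagreed. The progenitor gene even-skipped (eve) had 1.92 and 2.15 CPM in WT and 2.93 and 3.35 CPM in salm[340] and did not pass (0.62, SE 0.392, edgeR adjusted p = 0.319).

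Visceral muscle precursors and glia also use Htl. Of 6 visceral mesoderm markers 0 passed in edgeR or DESeq2 and 1 had an unadjusted p under 0.05 in edgeR, the adhesion gene Fas3 (-0.19, SE 0.0812, adjusted p = 0.138), and their summed level was 389.8 and 420.6 CPM in WT and 348.7 and 385.0 CPM in salm[340]. Without Fas3, the most abundant, the other 5 had 54.1 and 57.3 CPM in WT and 58.3 and 63.9 CPM in salm[340]. HLH54F, the master gene of the caudal visceral mesoderm, had 19.2 and 18.0 CPM in WT and 22.0 and 17.2 CPM in salm[340]. Of 5 glial markers 1 was lower, moody (-0.94, SE 0.199, edgeR adjusted p = 0.0106), and their summed level was 54.5 and 60.3 CPM against 56.5 and 58.7 CPM. Without loco, the most abundant, the other 4 had 28.7 and 27.1 CPM in WT and 19.6 and 22.6 CPM in salm[340]. Of 8 neural markers 2 were lower, nerfin-1 (-0.70) and wor (-1.06), with a summed level of 190.0 and 201.2 CPM against 172.4 and 189.4 CPM. The part of these cell types in the htl value was not tested.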

How the data were processed

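The submitters' processing notes list cutadapt 2.4, STAR 2.5.4b and the build BDGP6. The authors deposited raw counts per gene, made with featureCounts 2.0.1 on Ensembl's release 104 annotation (BDGP6.32), per the file headers. Per the same headers, strand was not used, and a fragment with several alignments or on several features counted for each feature it overlapped by at least 10 bases. Counts of overlapping genes therefore share fragments. Per-library and series counts were equal for all 17518 genes. Exon blocks come from the deposited files and protein lengths from Ensembl release 115, which gives the 6 genes the same positions.

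The main fit was edgeR 4.0.16 in R 4.3.3 on all 4 libraries (TMM, filterByExpr, quasi-likelihood test, Benjamini-Hochberg adjustment over 10738 genes, call under 0.05), without a replicate block. The fit was also run on counts simulated from its own means and dispersions. Such counts cannot check the technical replicates or the scaling between the lines. SE is the absolute log2 fold change over the square root of F. The TMM factors of WT were 1.55 and 1.47, and those of salm[340] 0.675 and 0.649. Replicate libraries differed by more than counting noise (chi-square per degree of freedom of 4.16 and 7.40 over nuclear genes). Poisson and counting intervals cover counting error only. DESeq2 1.42.0 was an alternative.

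The members, the 14 lists (117 distinct genes, 2 matched by synonym) and the tests were chosen with earlier results of these data known. Named genes are the 6 members, up to 4 called genes of each other list by adjusted p, or the 1 with the smallest where none was called, and the 3 genes most like htl and most like stumps (log2 CPM with a prior count of 2). Uncalled genes of a list named for their role were chosen after their values were seen.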

Additional observations from a re-analysis of the deposited data

How the results depend on the processing

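In 7 of the settings (DESeq2 size factors, upper-quartile scaling, scaling without mitochondrial genes and rRNA features, no filter, robust estimation, DESeq2 and the replicate block), stumps was called each time, with log2 fold changes of 0.63 to 0.67, and the other members were not. Genes called numbered 1338 with DESeq2 to 2426 without a filter, against 1847. Among the lists without a DESeq2 count above, DESeq2 called 3 early mesoderm regulators, 3 ectoderm, 3 hemocyte, 2 neural, 1 tracheal and 1 glial marker. With no filter the split was 1218 higher and 1208 lower, and with upper-quartile scaling 970 and 900, against 1078 and 769. With library size alone, 8361 genes were called, 84 higher and 8277 lower, and all 6 members were called lower: htl (-1.44), btl (-1.40), stumps (-0.53), ths (-0.67), pyr (-1.07) and bnl (-1.20). The median gene moved by -1.20 there. Levels per kb moved with the scaling by more than their SD for every member. For htl in WT, 13.5 CPM per kb in the main fit became 20.4 with library size alone. It became 26.1 with mitochondrial genes and rRNA features left out. In salm[340] the same 3 settings gave 11.4, 7.5 and 22.0 CPM per kb.

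With 1 library left out, 0 to 3 members and 14 to 3803 genes were called. The ranges were -0.29 to -0.22 for htl, -0.36 to -0.03 for btl, 0.57 to 0.74 for stumps, 0.32 to 0.68 for ths, -0.040 to 0.31 for pyr and -0.056 to 0.018 for bnl, which was also at 0.013 without salm340 replicate 1. Such a fit takes the spread of the line with 1 library from the other line's pair. Log2 ratio differences ranged from 0.82 to 1.01 (stumps to htl), -0.14 to 0.26 (btl to htl), 0.12 to 0.62 (ths to pyr), 0.04 to 0.31 (bnl to btl), 0.47 to 0.76 (ths and pyr to htl) and 0.30 to 0.51 (ligands to receptors), and adding 1 in place of 0.5 kept all 6 within 1 SD. Why single calls changed was not tested.

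Equal replicate numbers share only a number: deviations of replicate 1 from the group mean correlated at 0.0417 between the lines across 10738 genes. With the replicate block, stumps had a log2 fold change of 0.67 and 2256 genes were called. Depth limits btl and pyr most, with 62 to 103 counts in salm[340].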
